A study of Mus musculus with 20 samples.

Results

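The genes of the proteins that build the cytosolic ribosome were followed across liver tumours and non-tumour liver of mice with a conditional knockout of Apc. The members are the genes whose symbol is Rpl or Rps with a number and at most a letter and a final x or l, together with Rplp0, Rplp1, Rplp2 and Rpsa, where a probe set of the array carries that symbol alone. S6 kinase genes and pseudogene symbols were left out. Where a gene had several probe sets, the brightest on average across the 20 arrays stood for it. The rule found 46 members among 18193 genes, 24 of them named for the large (60S) subunit and 22 for the small (40S) subunit. It used no difference between groups, and all 46 were tested without a filter on low values. Another 29 ribosomal protein symbols, among them Rplp1, Rpl3, Rpl5 and Rpl10, occur only on probe sets that list several symbols and are not members.

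RNA from snap-frozen liver of male C57BL/6 mice was hybridised to Affymetrix arrays, 5 per group. The groups were adenomas of mice on phenobarbital (APCko_Adenoma), carcinomas of untreated mice (APCko_Carcinoma), non-tumour liver of mice on phenobarbital (PB_NT, the labelled control of the adenomas) and non-tumour liver of untreated mice (H2O_NT, the labelled control of the carcinomas). Every group carried the conditional Apc allele, so no liver without it stands among the controls, and the labels name neither the deleted part of Apc nor the promoter that drives the recombinase. According to the sample protocols the allele was triggered at 6 weeks of age by 1 injection of 0.75 mg tamoxifen, and 1 week later the mice went onto either plain chow or a 0.05% phenobarbital diet, on which they stayed for 9 months. The series' design text names the carcinogen DEN in place of tamoxifen, and the untreated group is called H2O in its name but standard chow in the protocols. Which of these holds was not settled. Phenobarbital acts on hepatocytes through the receptor CAR and is a classical promoter of rodent liver tumours. The adenomas came with phenobarbital and the carcinomas without it, so diet and tumour stage cannot be told apart. Nothing in the labels ties the samples to separate animals, and the p-values therefore describe the spread between samples, which may be technical.

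Apc was measured at 8.79 to 9.25 in adenomas, 10.53 to 10.97 in carcinomas, 8.43 to 8.71 in phenobarbital-treated liver and 8.64 to 8.97 in untreated liver on its brightest probe set (log2). The difference was 1.85 between carcinomas and untreated liver (SE 0.10, adjusted p = 6.8e-12 in limma) and 0.52 between adenomas and phenobarbital-treated liver (adjusted p = 0.0011). A second probe set had 7.35 to 7.88 in adenomas, 9.69 to 10.33 in carcinomas, 7.59 to 7.84 in phenobarbital-treated liver and 7.75 to 8.01 in untreated liver, so adenomas overlapped their control there, as they did on the remaining dim probe sets. Since the deleted part is not given, it is unknown whether these probes lie inside it, and the values check neither the deletion nor the labels.

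A ribosome joins a small subunit, which reads the messenger RNA, to a large subunit, which links the amino acids. Nearly all of their proteins are needed in equal numbers, and most of their messenger RNAs begin with a run of pyrimidines, through which their translation follows the mTOR pathway. Ribosomal RNA is made by RNA polymerase I, and the MYC proteins are known to drive both it and the ribosomal protein genes. Hepatocytes, which secrete most plasma proteins, hold many ribosomes.

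The starts of 5 members are shown because these genes stand for the patterns described below. Rpl35 and Rplp2 rose in both tumour types, Rps26 and Rpsa rose in carcinomas and did not pass the test in adenomas, and Rps27l fell in carcinomas. Each line runs 5′ to 3′ on the gene's strand from 70 bases before the transcription start, in RefSeq's annotation of GRCm38.p6, through the first 25 transcribed bases. Capitals mark the pyrimidine motifs (the motif CTTTT, the motif CTTTC and the motif CTTCC) within 10 bases of the start, where such letters may overlap, and CCGGAAG on either strand. Rpl35 lies at chr2:39005107-39005201 on the minus strand, Rplp2 at chr7:141447581-141447675 on the plus strand, Rps26 at chr10:128626482-128626576 on the minus strand, Rpsa at chr9:120127696-120127790 on the plus strand, and Rps27l at chr9:66946016-66946110 on the plus strand. The table held 2 windows for Rps27l and the more upstream one is shown, which is not at the 5′ end of the annotated gene.
Rpl35: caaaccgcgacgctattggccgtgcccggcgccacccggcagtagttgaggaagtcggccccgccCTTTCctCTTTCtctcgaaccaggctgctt
Rplp2: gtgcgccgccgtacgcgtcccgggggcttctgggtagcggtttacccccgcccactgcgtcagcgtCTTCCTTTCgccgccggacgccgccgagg
Rps26: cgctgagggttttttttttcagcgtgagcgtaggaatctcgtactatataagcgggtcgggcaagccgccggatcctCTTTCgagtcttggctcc
Rpsa: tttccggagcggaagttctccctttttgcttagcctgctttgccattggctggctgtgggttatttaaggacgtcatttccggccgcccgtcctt
Rps27l: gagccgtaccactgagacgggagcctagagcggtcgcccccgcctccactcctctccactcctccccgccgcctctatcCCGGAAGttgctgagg

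The table of promoters held 48 windows for 40 of the members, each from 250 bases before to 50 bases after a start. At least 1 of the 3 pyrimidine motifs lay on the gene's strand within 10 bases of the start in 31.2% of them, against 10.6% of all 32851 windows in the table. CTTTC was found there in 22.9% of the member windows and 3.1% of all windows, CTTCC in 10.4% and 5.41%, and CTTTT in 6.25% and 2.57%. CCGGAAG, the core of ETS-type sites, stood on either strand in 41.7% of member windows and 8.86% of all windows. CACGTG, the E-box that MYC proteins bind, was in 10.4% of member windows and 7.15% of all windows, while TATAAA between 40 and 20 bases before the start was in 0 of the 48 and in 1.99% of all windows. These are counts of letters, and their part in the expression differences was not tested. The stretch shown for Rpsa holds no capitals.

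Of the 46 members, 35 had a mean log2 value of 10 or more over the arrays, and on each array their median lay between percentile 98.8 and percentile 99.9 of all genes. The other 11 members, among them Rps16, Rpl3l, Rpl39, Rpl14, Rpl12 and Rps25, were read by dimmer probe sets. Brightness depends on the probes as well as on the RNA, so the levels of different genes are not compared. The bright members were also steady, with a median SD among the 5 arrays of a group of 0.15 in adenomas, 0.0726 in carcinomas, 0.0489 in phenobarbital-treated liver and 0.0843 in untreated liver on the log2 scale. On the carcinoma arrays the brightest member read 14.51 to 14.57, and the highest probe set of all 14.63 to 15.03. Whether readings so near the top of the scale limit the spread and the differences was not tested.

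Phenobarbital without a tumour was not accompanied by a detectable change of the ribosomal protein genes. In phenobarbital-treated against untreated non-tumour liver 0 of 46 members passed the threshold of an adjusted p under 0.05 in limma, where 0.225% of all genes did (0.203% higher, 0.022% lower). The unadjusted p was under 0.05 for 1070 of all 18193 genes and for 1 member. That member was Rps25, a small-subunit protein used in translation from internal entry sites, with a log2 difference of -0.43 and an adjusted p of 0.29. The members' median was 0.997-fold and their log2 differences ran between -0.51 and 0.18. Per array, the median deviation of the 46 members from their own means was -0.30 to -0.23 in phenobarbital-treated liver and -0.34 to -0.13 in untreated liver. The ranges overlapped, and untreated array 3 was the highest of the 10.

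In carcinomas against untreated liver the members rose almost together. 41 of 46 were higher, where 31.5% of all genes were, and 3 were lower, where 37.7% of all genes were. Their median difference was 0.87 on the log2 scale, or 1.83-fold, while the median of all genes was -0.12. Over the 12036 genes whose highest group mean was at least 6, the median was 0.15. The median deviation of the members was 0.51 to 0.67 on the 5 carcinoma arrays, so every carcinoma lay above every array of the other groups. For 38 members all 5 carcinomas exceeded all 5 untreated livers, which held for 25.6% of all genes. The reverse, all carcinomas below all untreated livers, held for 2 members and for 27.8% of all genes. 13 members had risen at least 2-fold, against 16.9% of all genes. By subunit, 22 of 24 large-subunit members were higher with a median of 0.84, and 19 of 22 small-subunit members with a median of 0.91.

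**Figure D1:**
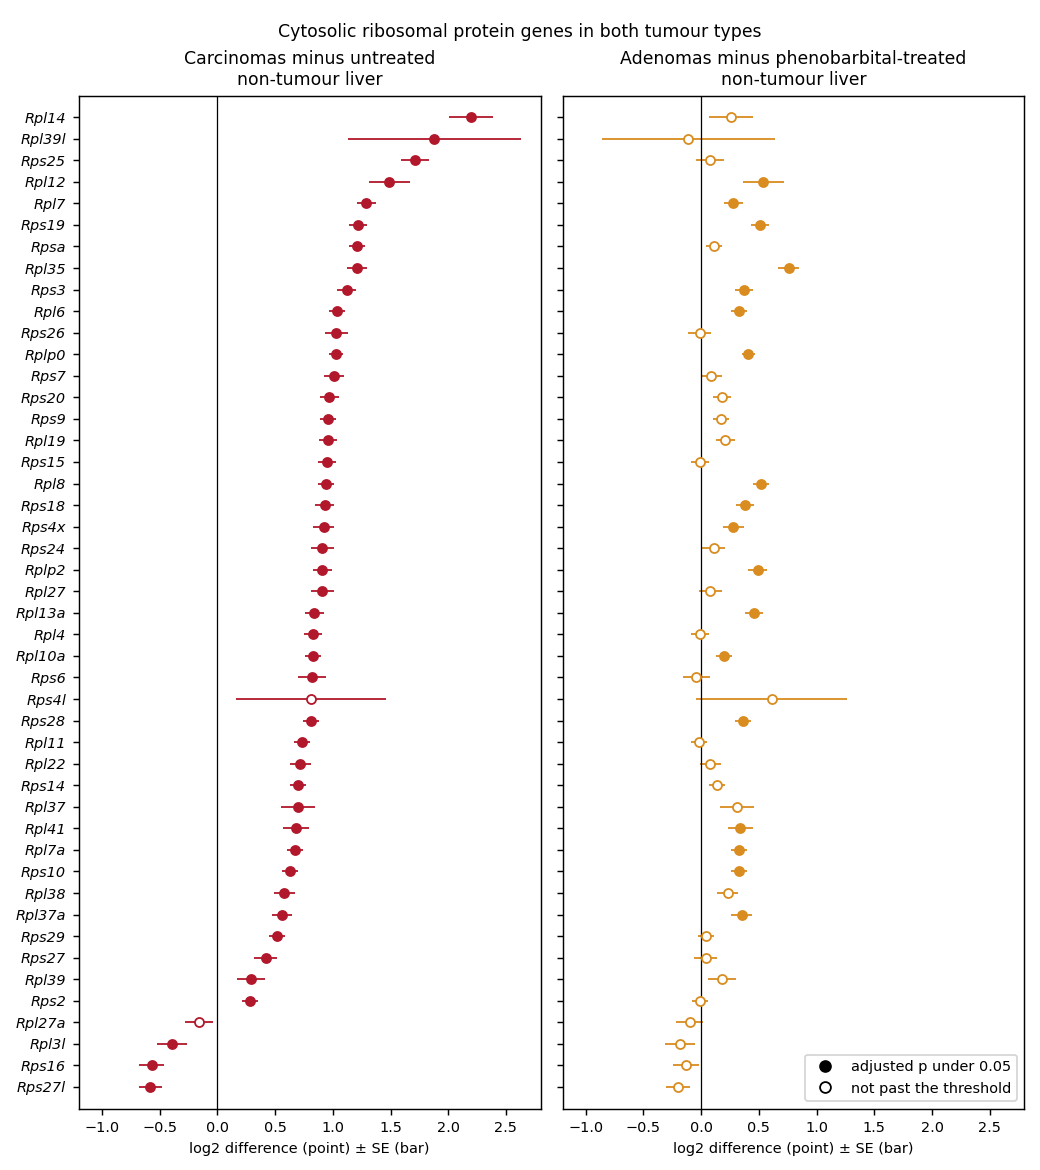
Log2 difference of each of the 46 members (point) with its standard error (bar) in carcinomas minus untreated non-tumour liver (left) and adenomas minus phenobarbital-treated non-tumour liver (right). Filled points passed an adjusted p under 0.05. In carcinomas 41 members were higher and 3 lower, and in adenomas 18 were higher and 0 lower.

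Among bright members of the large subunit the widest rise was that of Rpl7, an RNA-binding protein. Its log2 values were 13.93, 13.99, 13.77, 13.94 and 13.87 in carcinomas, against 12.59, 12.59, 12.70, 12.59 and 12.57 in untreated liver. The groups were far apart, with no overlap, and the rise was 2.45-fold (log2 difference 1.29, SE 0.08, adjusted p = 1.1e-11 in limma). Rplp0, the base of the stalk that recruits elongation factors, had 13.85, 13.95, 13.98, 13.94 and 14.01 in carcinomas, against 12.93, 12.92, 12.93, 12.92 and 12.88 in untreated liver. The lowest carcinoma was well above the highest untreated liver, and the difference was 1.03 (SE 0.06, adjusted p = 3.1e-11). Its stalk partner Rplp2 rose by 0.91 on the log2 scale.

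Small-subunit members behaved alike. Rpsa, the subunit protein also known as the laminin receptor, had 13.85, 13.77, 13.72, 13.80 and 13.74 in carcinomas, against 12.51, 12.61, 12.70, 12.61 and 12.40 in untreated liver. More than a full log2 unit separated the groups, with a difference of 1.21 (SE 0.07, adjusted p = 9.4e-12). Rps19, the gene most often mutated in Diamond-Blackfan anaemia of people, had 13.74, 13.42, 13.51, 13.69 and 13.46 in carcinomas, against 12.33, 12.33, 12.46, 12.28 and 12.33 in untreated liver. Again the groups stood apart, with a difference of 1.22 (SE 0.08, adjusted p = 7.7e-11). Of the measured members in which variants cause that anaemia, all 3 of the large and all 8 of the small subunit were higher in carcinomas, as were 89.1% of all members and 31.5% of all genes. Rps6, the substrate of S6 kinase, was read by a dimmer probe set and rose by 0.82 (adjusted p = 6.1e-06). The smallest rise among bright members was that of Rps2, at 0.28.

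Larger differences came from dimmer probe sets. Rpl14 differed by 2.20 (adjusted p = 5.4e-09), with 8.50, 8.46, 7.78, 8.30 and 8.44 in carcinomas against 6.55, 5.92, 6.29, 6.00 and 5.72 in untreated liver. Rps25 differed by 1.71 (adjusted p = 1.9e-10), with 8.95, 9.16, 8.91, 8.79 and 8.79 in carcinomas against 7.19, 7.13, 7.43, 7.49 and 6.81 in untreated liver. Rpl12, a protein at the foot of the stalk, differed by 1.49 (adjusted p = 6.8e-07). The carcinomas of all 3 genes lay wholly above untreated liver.

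**Figure D2:**
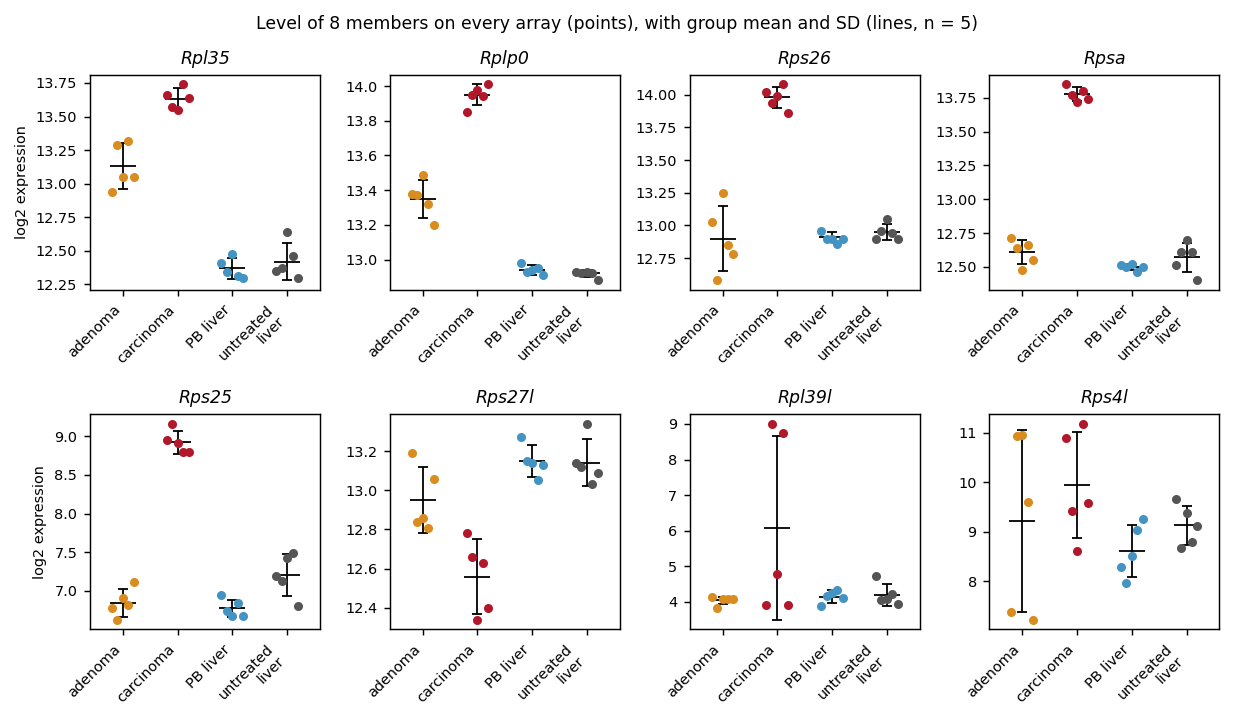
Log2 expression of 8 members on each of the 20 arrays (points), with the mean and SD of each group (lines, n = 5); groups from left to right are adenomas, carcinomas, phenobarbital-treated (PB) non-tumour liver and untreated non-tumour liver, and each panel has its own axis. Carcinomas are highest for Rpl35, Rplp0, Rps26, Rpsa and Rps25 and lowest for Rps27l, and Rpl39l is high on carcinoma arrays 2 and 4.

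The members that went the other way were paralogues or dim. Rps27l, a close paralogue of Rps27, was the bright exception. It had 12.78, 12.66, 12.34, 12.63 and 12.40 in carcinomas, against 13.14, 13.12, 13.34, 13.03 and 13.09 in untreated liver. Every carcinoma lay below every untreated liver, and the difference was -0.58 (SE 0.10, adjusted p = 3.3e-05). All 3 of its probe sets were lower, by -0.58, -0.62 and -0.65. Rps27 itself rose by 0.42 on a dim probe set (adjusted p = 0.0017), but quantile normalization gave 0.17 and no call. Rps16 (-0.57, adjusted p = 0.00017) and Rpl3l, a paralogue of Rpl3 best known from striated muscle (-0.39, adjusted p = 0.0099), were near the bottom of the scale in every group, with no value above 4.55. Rpl27a (-0.16, adjusted p = 0.26) and Rps4l (0.81, adjusted p = 0.27) did not pass the test.

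A pair of paralogues varied between tumours of the same group. Rpl39l, a paralogue of Rpl39 known for its expression in the testis, had log2 values of 3.92, 9.01, 4.79, 8.74 and 3.92 in carcinomas, against 4.72, 4.04, 4.09, 4.23 and 3.93 in untreated liver. Carcinomas 2 and 4 were high and the other three near the level of liver, as were all adenomas (3.84 to 4.13). Its difference of 1.88 (SE 0.75, adjusted p = 0.034) rested on those arrays, and leaving out either gave values down to 1.14 without a call. The call was lost in 8 alternatives, among them leaving out untreated array 2, 3, 4 or 5 and fitting only the groups compared. Rpl39 rose by 0.29 (adjusted p = 0.042), a call lost in 10 of the alternatives. Rps4l, a relative of Rps4x that RefSeq lists as a transcribed pseudogene, had 7.38, 10.94, 10.95, 9.61 and 7.23 in adenomas, 10.89, 9.42, 8.62, 11.18 and 9.58 in carcinomas, 8.29, 7.96, 8.52, 9.04 and 9.25 in phenobarbital-treated liver and 9.66, 8.68, 9.37, 8.80 and 9.11 in untreated liver. Adenomas held both the lowest values and some of the highest, the groups overlapped, and no comparison passed the test.

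In adenomas against phenobarbital-treated liver the rise was smaller and covered fewer members. 18 of 46 were higher, where 13.5% of all genes were, and 0 were lower, where 11.3% of all genes were. Their median difference was 0.19, or 1.14-fold, with -0.03 over all genes, and no member reached 2-fold, where 4.01% of all genes did so. The 18 were Rpl35, Rpl12, Rpl8, Rplp2, Rpl13a, Rplp0, Rpl37a, Rpl41, Rpl6, Rpl7a, Rpl7, Rpl10a, Rps19, Rps18, Rps3, Rps28, Rps10 and Rps4x. They made up 12 of 24 large-subunit and 6 of 22 small-subunit members, with medians of 0.27 and 0.11 over all members of each subunit; the difference between the subunits was not tested. For 18 members the adenomas lay wholly above phenobarbital-treated liver, as they did for 10.4% of all genes. These included Rpl19 and Rps9, which were not called, and left out Rpl12 and Rpl41, which were called but overlapped.

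Rpl35, which sits at the exit of the peptide tunnel, rose most in adenomas. Its log2 values were 12.94, 13.29, 13.05, 13.32 and 13.05 in adenomas and 13.66, 13.57, 13.55, 13.74 and 13.64 in carcinomas. Non-tumour liver had 12.41, 12.34, 12.48, 12.31 and 12.30 with phenobarbital and 12.35, 12.37, 12.64, 12.46 and 12.30 without. Adenomas lay between liver and carcinomas with no overlap on either side. The differences were 0.76 in adenomas (1.7-fold, SE 0.09, adjusted p = 3.8e-06) and 1.21 in carcinomas (2.31-fold, SE 0.09, adjusted p = 2.9e-10).

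Rplp2 had 13.67, 13.87, 13.88, 13.99 and 13.77 in adenomas, against 13.40, 13.28, 13.38, 13.31 and 13.33 in phenobarbital-treated liver. The groups did not overlap and differed by 0.49 (SE 0.08, adjusted p = 0.00021). Rpl8 (0.52), Rps19 (0.51), Rpl13a (0.46) and Rplp0 (0.41) rose in adenomas by similar amounts, with adjusted p between 1.1e-05 and 0.00039. Rpl12 was called at 0.54 (adjusted p = 0.037) and lost the call in 8 alternatives, and Rps4x at 0.28 (adjusted p = 0.032) lost it in 7.

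Other members that rose in carcinomas did not pass the test in adenomas. Rps26, at the exit of the messenger RNA channel, had 13.03, 12.58, 13.25, 12.85 and 12.78 in adenomas, against 12.96, 12.90, 12.90, 12.86 and 12.90 in phenobarbital-treated liver. The adenomas scattered to both sides of liver, and the difference was -0.01 (SE 0.10, adjusted p = 0.96). In the same gene carcinomas had 14.02, 13.94, 13.99, 14.08 and 13.86, against 12.90, 12.96, 13.05, 12.94 and 12.90 in untreated liver, a difference of 1.03 (adjusted p = 1.1e-08). Rps15 (-0.01), Rpl11 (-0.02), which with Rpl5 binds MDM2, Rps6 (-0.04), Rpl22 (0.08) and Rpsa (0.11) had adenoma differences with adjusted p between 0.29 and 0.94, while each was higher in carcinomas. A dimmer probe set of Rpl22 fell by 0.77 in adenomas (adjusted p = 0.00056 over all probe sets) and rose by 0.98 in carcinomas. Rpl38 had 0.23 in adenomas (adjusted p = 0.079), with a call at 0.27 to 0.30 in 4 alternatives, and 0.58 in carcinomas (adjusted p = 2e-05).

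The size of both tumour effects was compared in an interaction, the carcinoma difference minus the adenoma difference. It was called above 0 for 36 of 46 members, where 23.5% of all genes were, and called below 0 for 2, where 23.2% were. The members' median was 0.63, with -0.08 over all genes. Of the 18 members higher in both tumours, 16 had the larger effect in carcinomas, and so had 20 of the 23 called higher in carcinomas and not called in adenomas. The interaction was 1.10 for Rpsa (adjusted p = 2e-08), 1.04 for Rps26 (2.9e-06), 1.01 for Rpl7 (1.7e-07) and 0.96 for Rps15 (5.7e-07), and 0.45 for Rpl35 (0.0059). The members called below 0 were Rps27l (-0.39, adjusted p = 0.029) and the dim Rps16 (-0.43, adjusted p = 0.03), each losing the call in 7 alternatives.

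**Figure D3:**
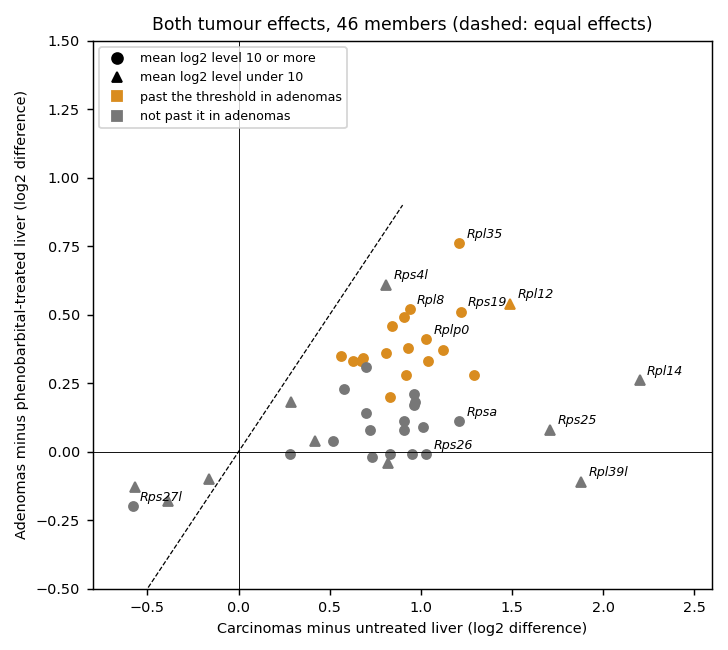
Log2 difference of each of the 46 members in carcinomas minus untreated liver (x axis) and in adenomas minus phenobarbital-treated liver (y axis), with the dashed line at equal effects. Circles are members with a mean log2 level of 10 or more, triangles the others, and orange marks the 18 members higher in adenomas. Points right of the line had the larger effect in carcinomas, as the interaction found for 36 members.

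Across the 46 members the tumour effects, which share no arrays, had a Pearson correlation of 0.42 and a Spearman correlation of 0.35 (0.48 and 0.29 over the 35 bright members). The probe sets were hybridised together on the same arrays, and the genes are not independent, so this is a description. In direct comparison adenomas were below carcinomas for 39 members, where 28.7% of all genes were lower, and above for 2, Rps27l (0.39) and Rpl3l (0.35), where 33.7% were higher. The median was -0.64, with 0.10 over all genes, and for 35 members all adenomas lay below all carcinomas, as for 20.1% of all genes. The carcinoma mean was the highest of the 4 group means for 42 members, and for 34 the order was carcinomas, then adenomas, then both non-tumour livers. Rps27l had the reverse place for carcinomas, with means of 12.95 in adenomas, 12.56 in carcinomas, 13.15 in phenobarbital-treated liver and 13.14 in untreated liver. The means of the livers did not differ beyond their SDs of 0.08 and 0.12.

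Other probe sets of the same genes mostly moved with the one chosen. The 46 members had 100 probe sets with their symbol alone. Of the 69 with a mean log2 value of 10 or more, 66 were higher in carcinomas and the 3 lower ones were those of Rps27l, where 28.3% of all probe sets were higher and 34.9% lower. Of the 31 dimmer ones, 18 were higher and 5 lower. Rps24, Rps3 and Rps4x each had a dim probe set with a call opposite to the bright one. For Rps24 it fell by 0.41 in carcinomas, while another dim probe set differed by 2.54 in carcinomas and -0.49 in adenomas, against 0.91 and 0.11 for the chosen one. For Rps3 it fell by 0.95 in carcinomas and by 0.47 in adenomas (adjusted p = 0.015), where the chosen one rose by 1.12 and 0.37, and another dim one rose by 2.26 in carcinomas. The dim one of Rps4x fell by 0.63 in carcinomas. In adenomas 35 of the 69 brighter probe sets were higher and 0 lower, and of the 31 dimmer ones 1 was higher and 3 were lower, where 9.62% and 9.18% of all probe sets were. The 110 probe sets that list a ribosomal protein symbol among several symbols were not named, and 96 of them were higher and 2 lower in carcinomas, with a median of 0.85. In adenomas 49 of the 110 were higher and 3 lower.

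**Figure D4:**
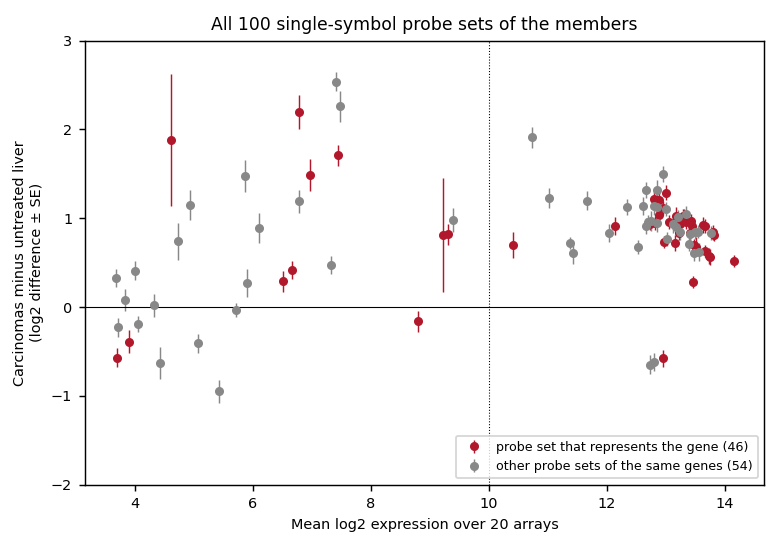
Carcinoma difference from untreated liver with its standard error for all 100 probe sets that carry a member's symbol alone, against their mean log2 expression over the 20 arrays. Red points are the probe sets that represent the genes and the dotted line stands at 10. Right of the line 66 of 69 lie above 0, and left of it the values scatter in both directions.

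Genes that make and serve the ribosome were counted in the same way, and their counts stand beside 31.5% of all genes higher and 37.7% lower in carcinomas, and 13.5% higher and 11.3% lower in adenomas. Of 15 measured genes of ribosomal RNA transcription, 11 were higher and 1 lower in carcinomas (median 0.49), and 6 were higher and 1 lower in adenomas (median 0.25). Rrn3, which brings RNA polymerase I to its promoter, differed by 1.47 in carcinomas and 0.82 in adenomas. Of 53 ribosome assembly genes, 32 were higher and 7 lower in carcinomas (median 0.42), and 14 were higher and 3 lower in adenomas (median 0.16). Nop56, a core protein of the complexes that methylate ribosomal RNA, rose by 1.85 and Gnl3l, a nucleolar GTPase, by 1.81 in carcinomas, while Imp4, a factor in small-subunit processing, fell by 0.95. Eif6, which keeps the subunits apart, was highest in adenomas, with a rise of 1.16 there and a difference of -0.20 in carcinomas that missed the threshold (adjusted p = 0.051).

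Translation factors were counted in the same way. Of 30 initiation genes 25 were higher and 4 lower in carcinomas (median 0.65), with Eif3k (1.18) and Eif3f (1.13), subunits of the factor that prepares the small subunit, as the largest rises. The largest falls were those of Eif4ebp2 (-2.37) and Eif4ebp1 (-1.83), whose proteins bind and inhibit the cap-binding protein. Eif4ebp1 differed by 1.16 in the other direction in adenomas, with an interaction of -2.99 (adjusted p = 1.2e-08). In adenomas 13 initiation genes were higher and 2 lower (median 0.16). Of 13 elongation and termination genes 11 were higher and 0 lower in carcinomas (median 0.45), with Eef2, which moves the ribosome along, at 1.05 and Naca, which meets the emerging chain, at 0.99. In adenomas 3 of the 13 were higher (23.1%) and 1 lower (7.69%), near the shares over all genes, with a median of 0.02, and Eef2 had -0.03 there (adjusted p = 0.84).

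A further list held 18 measured genes around MYC, mTOR and p53, with activators and inhibitors counted together, so its counts give no direction of regulation. Of these, 9 were higher (50%) and 6 lower (33.3%) in carcinomas (median 0.44), the lower share being near the 37.7% of all genes. In adenomas 7 were higher and 0 lower (median 0.29). Myc differed by 2.12 in carcinomas (SE 0.35, adjusted p = 2.8e-05) and by 1.23 in adenomas (adjusted p = 0.015), with group means of 8.46 in adenomas, 9.36 in carcinomas, 7.23 in phenobarbital-treated liver and 7.24 in untreated liver. Its interaction of 0.89 did not pass the test (adjusted p = 0.15). Cdkn1a, the cell-cycle inhibitor p21, rose by 4.48 in carcinomas and by 2.38 in adenomas. Deptor, which binds and restrains mTOR, fell by 4.54 in carcinomas and had a difference of 0.05 in adenomas (adjusted p = 0.86). Rpl22l1, the paralogue of Rpl22 whose symbol lies outside the rule, rose by 1.61 in carcinomas beside 0.72 for Rpl22, and had 0.47 in adenomas (adjusted p = 0.08). Rps3a1 (0.89) and Fau (0.62), other small-subunit genes outside the rule, were also higher in carcinomas, and Rpl7l1 was at -0.03 (adjusted p = 0.82).

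The proteins of the mitochondrial ribosome, which is separate and translates the messages of the mitochondrial genome, were mostly lower in carcinomas. Of 76 such genes, 46 were lower (60.5%, against 37.7% of all genes) and 7 higher (9.21%, against 31.5%) in carcinomas, with a median of -0.40 beside 0.87 for the cytosolic members. Mrpl50 fell by 1.71 and Mrpl38 by 1.47, while Mrpl3 rose by 0.87 and Mrpl54 by 0.47. In adenomas 10 were lower (13.2%, near the 11.3% of all genes) and 4 higher (5.26%, against 13.5%), with a median of -0.06 and with Mrps16 at -0.81 and Mrpl57 at -0.63 among the falls and Mrps18a at 1.47 and Mrps26 at 0.50 among the rises. The interaction was called below 0 for 34 of the 76 and above 0 for 4, where 23.2% and 23.5% of all genes were. In phenobarbital-treated against untreated liver, 0 genes of any of these lists passed in limma. There 6 of the 53 assembly genes, 2 of the 15 ribosomal RNA transcription genes and 1 of the 76 mitochondrial genes had an unadjusted p under 0.05. So had 1070 of all 18193 genes.

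**Figure D5:**
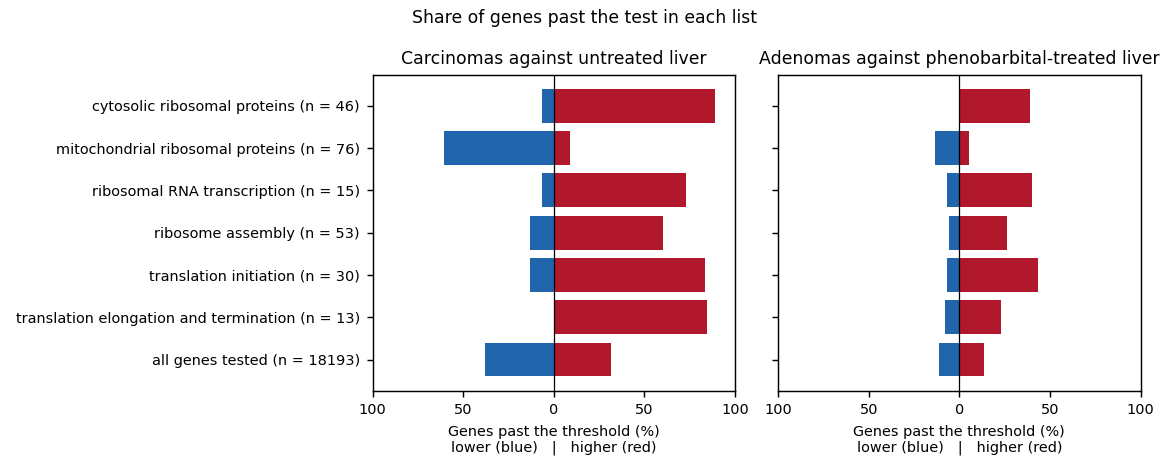
Percentage of measured genes in each list that were lower (blue, left of 0) or higher (red, right of 0) at an adjusted p under 0.05, in carcinomas against untreated liver (left) and adenomas against phenobarbital-treated liver (right). Of the 46 cytosolic members 41 were higher and 3 lower in carcinomas, and of the 76 mitochondrial ones 7 were higher and 46 lower.

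The tumours differed from liver in their cell markers as well. The counts stand beside 31.5% of all genes higher and 37.7% lower in carcinomas, and 13.5% and 11.3% in adenomas. All 8 measured hepatocyte markers were lower in carcinomas, with a median of -4.75, and 1 was lower in adenomas. Their summed linear level was 123000 to 147000 in adenomas, 1440 to 45600 in carcinomas, 143000 to 153000 in phenobarbital-treated liver and 158000 to 173000 in untreated liver. All 7 proliferation genes were higher in both tumour types, with sums of 748 to 2760 in adenomas, 1520 to 7000 in carcinomas, 238 to 404 in phenobarbital-treated liver and 215 to 557 in untreated liver. Of 8 stellate cell and fibroblast markers 6 were higher in carcinomas, with sums of 22600 to 53600 in carcinomas against 4150 to 7790 in untreated liver. In adenomas 4 of these 8 were higher and 2 lower (median 1.05), with sums of 2870 to 12700, against 5170 to 6480 in phenobarbital-treated liver. Adenomas also had 1 higher and 4 lower of 8 macrophage markers and 1 higher and 2 lower of 8 endothelial markers.

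Of the other cell markers measured in carcinomas, 5 of 6 B and plasma cell, 6 of 8 endothelial, 4 of 8 macrophage and 3 of 5 granulocyte genes were lower. Among all genes 37.7% were lower and 31.5% higher. Macrophage markers also had 1 higher gene, the 5 cholangiocyte markers had 1 higher and 1 lower, and the 7 T and NK cell markers had 3 higher and 3 lower. Cd2, Cd79a, Cftr, Mpo, Elane and Cxcr2 stayed under a log2 value of 6 on every array. The last 3 of these are granulocyte genes. The brighter granulocyte genes, S100a8 and S100a9, overlapped between carcinomas and untreated liver. The part of these markers in the ribosomal protein differences was not tested. In such bulk samples fewer cells of a type and less RNA per cell cannot be told apart, and array values after RMA give no change in total RNA per cell. The upper quartile of the arrays was 7.56 to 7.65 in adenomas, 7.74 to 7.80 in carcinomas, 7.49 to 7.53 in phenobarbital-treated liver and 7.49 to 7.54 in untreated liver, and its part was not tested either.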

How the data were processed

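The table that the authors deposited holds log2 values of 45037 probe sets on 20 arrays. Per the submitters' processing notes RMA made them, and no version is named. RMA corrects background and aligns the arrays' distributions, so a change common to all genes is removed and folds of dim probe sets shrink. Arrays have no read depth; their number limits the precision. Groups come from the labels. Of the probe sets, 34945 carried 1 symbol in the platform annotation, which can be old (34741 matched RefSeq, GRCm38.p6), 932 several and 9160 none.

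All 18193 genes were fitted in R 4.3.3 by lmFit and eBayes of limma 3.58.1 (4 groups in 1 fit, 16 residual and 3.21 prior degrees of freedom, two-sided, Benjamini-Hochberg over all genes per comparison); every adjusted p for a gene comes from it. Probe sets were fitted alike over all 45037. Summed marker levels add linear values of the markers. The procedure was tested on simulated data. Tables and plots used Python 3.11.15, pandas 2.3.3 and matplotlib 3.10.9.

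The members and lists were chosen with earlier results of these data known. Named members were the 6 largest rises and falls per comparison among called members whose groups did not overlap (no overlap rule for the interaction) and a panel chosen by role; other members are named only to account for the full set, to show a gene with several probe sets, or as examples chosen after their values were seen. Of each other list, up to 2 called genes each way were named by size. Same-numbered samples showed no pairing (correlations of deviations over 30 pairs between -0.115 and 0.131). Results were recomputed with each of the 20 arrays left out and under 9 other settings.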

Additional observations from a re-analysis of the deposited data

Results flagged for a closer look

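The difference between the carcinoma and the adenoma effect was flagged by the interaction test for 36 members with the larger and 2 with the smaller carcinoma effect. Among the members named by rule, its log2 size was 1.94 for Rpl14, 1.63 for Rps25, 1.10 for Rpsa, 1.04 for Rps26, 1.01 for Rpl7, 0.96 for Rps15 and 0.94 for Rpl12. It was 0.86 for Rps6, 0.75 for Rpl11, 0.71 for Rps19, 0.64 for Rps4x, 0.64 for Rpl22 and 0.62 for Rplp0. Smaller values were those of Rpl35 (0.45), Rpl8 (0.42), Rplp2 (0.42), Rpl13a (0.38), Rps27 (0.38) and Rpl38 (0.35). Called below 0 were Rps27l (-0.39) and Rps16 (-0.43).

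In 9 of the 104 groups of 5 arrays examined, which cover the named members and the median of all members, 1 array lay far from the other four, where chance flags about 1 in 20. Carcinoma 3 was low for Rpl14 at 7.78 (others 8.30 to 8.50) and for Rps15 at 13.42 (others 13.49 to 13.51), and carcinoma 4 was high for Rps16 at 3.59 (others 3.35 to 3.40). Adenoma 2 was low for Rpl39l at 3.84 (others 4.07 to 4.13). In phenobarbital-treated liver, array 3 was high for Rpl12 at 6.73 (others 6.13 to 6.25) and array 4 low for Rpsa at 12.46 (others 12.50 to 12.52). In untreated liver, array 3 was high for Rpl7 at 12.70 (others 12.57 to 12.59) and Rpl22 at 13.15 (others 12.89 to 12.92), and array 5 was low for Rplp0 at 12.88 (others 12.92 to 12.93).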

How the results depend on the processing

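Leaving out each array in turn gave 0 to 0 called members between the livers, 42 to 44 in carcinomas, 14 to 19 in adenomas, 40 to 42 between the tumours and 35 to 38 in the interaction. The medians then ran from -0.02 to 0.02, from 0.85 to 0.92, from 0.16 to 0.22, from -0.66 to -0.58 and from 0.59 to 0.65. The other settings gave 42 to 44, 16 to 21, 39 to 41 and 33 to 39 called members. With each array centred on its median, the median of adenomas against carcinomas was -0.56 and that of the interaction 0.53, moves larger than the spread between arrays that kept their direction. With probe sets averaged per gene, Rps4x had 0.14 in carcinomas against untreated liver (adjusted p = 0.22) and 0.16 in adenomas against phenobarbital-treated liver (adjusted p = 0.3), both without a call, and turned to 0.03 between the tumours (adjusted p = 0.80) and to -0.02 in the interaction (adjusted p = 0.94); that mean includes its dim probe set, which fell in carcinomas. With the replicate block, 0, 43, 16, 41 and 37 members were called; the numbers share no stated animal, 8 of 30 pairs correlated best with their own number, and the block changed no count by over 1.5 times. Leaving out untreated arrays 3 and 4, chosen after seeing that their proliferation genes read higher, gave 43 called members in carcinomas and 35 in the interaction, where Rps27l and Rps16 lost their calls. The medians over all genes depended on dim genes. With only the 12036 genes whose highest group mean was at least 6, they changed sign in the tumour comparisons. They were then 0.15 in carcinomas, 0.03 in adenomas, -0.07 between the tumours and 0.07 in the interaction. Over all 18193 genes they were -0.12, -0.03, 0.10 and -0.08. Precision is limited by 5 arrays per group. Calls of Rpl12 and Rps4x in adenomas and of Rpl39 and Rpl39l in carcinomas were lost in several settings. So were those of Rps27, Rpl38, Rps27l and Rps16 in the interaction. The adenoma call of Rps4x was lost with single arrays left out as well as with probe sets averaged. The cause of these losses was not tested.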

Other observations

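Rplp0, Rpl13a and Rps18 are commonly used as reference transcripts in quantitative PCR, and were named here for that use. In carcinomas against untreated liver they were higher 2.04-fold, 1.79-fold and 1.9-fold on these arrays. These sizes depend on the probe set. Other probe sets of Rpl13a differed by 1.05, 1.23 and 1.91 on the log2 scale, against 0.84 for the one used. Other probe sets of Rps18 differed by -0.03 to 1.01, the lowest on a dim one, against 0.93. In adenomas against phenobarbital-treated liver they were higher 1.33-fold, 1.38-fold and 1.3-fold. Other probe sets of Rps18 differed there by -0.2 to 0.67 on the log2 scale, the lowest on a dim one, against 0.38. Those of Rpl13a differed by 0.48 to 0.56, against 0.46. Between phenobarbital-treated and untreated liver no member passed the limma test.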
